A study of Mus musculus with 12 samples.

Results

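The genes described here are 30 genes of fatty acid oxidation and of the nuclear receptor PPAR alpha, chosen by their known roles. They cover uptake and activation of fatty acids, the carnitine shuttle, beta-oxidation in mitochondria and peroxisomes, acyl-CoA thioesterases, and genes that PPAR alpha is known to switch on. Each was found by its gene name or a known synonym on an array that carried 27670 gene names, and all 30 were present, with 42 of the 41174 probes. Plin2 stood under the older name Adfp, Plin5 under 2310076L09Rik, Eci1 under Dci and Hadh under Hadhsc. The study measured RNA in hearts and kidneys of mice that lack the equilibrative nucleoside transporter mENT1, encoded by Slc29a1, and of wild type mice. The 4 groups were mENT1 knockout heart, wild type heart, mENT1 knockout kidney and wild type kidney. Each group held 3 arrays, lettered a, b and c, and total RNA of 1 tissue sample was labelled with the dye Cy3 for each array. All animals were of the FVB/N background. Their age and sex are not given in the labels, nor how the knockout allele was made or which cells lack the transporter, and 3 mice per genotype were stated as the source of both tissues.

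Fatty acids enter a cell through carriers such as Cd36, are held in the cytosol by fatty acid binding proteins and are activated to acyl-CoA by acyl-CoA synthetases. Carnitine palmitoyltransferases then pass the acyl group across the mitochondrial membranes, where repeated rounds of beta-oxidation cut it to acetyl-CoA. PPAR alpha, bound by fatty acids and paired with a retinoid X receptor, switches on many of these genes, and Ppargc1a is one of its coactivators. The adult heart draws most of its energy from fatty acids, and the proximal tubule of the kidney also depends on them.

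PPAR alpha with its partner binds a direct repeat of AGGTCA-like motifs spaced by a base, the DR1 element. Promoters are printed for 3 genes on which the results below turn, Fabp1, Ucp3 and Cpt1a, to show where such letters stand. All are from RefSeq (assembly GRCm38.p6), on the plus strand, and run up to the base before the gene's start. Capitals mark the DR1 match in the promoter of Fabp1, at chr6:71199629-71199878, and each AGGTCA on either strand (TGACCT on the minus strand) in those of Ucp3, at chr7:100472741-100472990, and Cpt1a, at chr19:3323051-3323300.
Fabp1: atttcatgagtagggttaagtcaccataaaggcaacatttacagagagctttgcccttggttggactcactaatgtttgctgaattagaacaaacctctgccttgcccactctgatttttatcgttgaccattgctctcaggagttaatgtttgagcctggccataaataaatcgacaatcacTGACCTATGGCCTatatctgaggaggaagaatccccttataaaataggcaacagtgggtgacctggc
Ucp3: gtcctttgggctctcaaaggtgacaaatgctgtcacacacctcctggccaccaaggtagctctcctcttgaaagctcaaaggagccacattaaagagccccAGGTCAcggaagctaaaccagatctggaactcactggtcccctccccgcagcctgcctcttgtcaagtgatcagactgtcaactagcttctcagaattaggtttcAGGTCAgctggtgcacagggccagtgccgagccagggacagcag
Cpt1a: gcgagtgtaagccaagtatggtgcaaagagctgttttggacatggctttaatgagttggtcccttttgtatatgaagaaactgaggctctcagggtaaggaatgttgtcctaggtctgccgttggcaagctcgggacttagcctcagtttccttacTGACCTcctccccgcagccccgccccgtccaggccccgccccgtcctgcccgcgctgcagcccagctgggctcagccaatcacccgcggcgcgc

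Promoters of 27 of the 30 genes were matched, and those of Cpt1b, Decr1 and Angptl4 were not. Within 250 bases before and 50 bases after the start, the DR1 letters (AGGNCA, any base, then AGGNCA again), searched on both strands, stood in 1 of the 27 genes, or 3.7%, against 0.45% of the 27025 genes with a promoter. That gene was Fabp1, whose match lies on the minus strand with its first base 67 bases before the start. The AGGTCA motif, which the DR1 of Fabp1 also holds, stood in 8 of the 27 genes, or 29.63%, against 18.13% of all genes. Those genes were Acadm, Acadvl, Cd36, Cpt1a, Fabp1, Plin2, Plin5 and Ucp3. The letters TNAAGGTCA stood in none of the 27, against 1.43% of all genes, and the E-box CACGTG in Plin2 alone, or 3.7%, against 8.09%. A match is a run of letters and not a measured binding site. Hadha and Hadhb, which encode the subunits of the mitochondrial trifunctional protein, start 273 bases apart on opposite strands of chromosome 5, so their windows overlap by 228 bases. Ucp3 and Ucp2 start 20.4 kb apart on chromosome 7, and Acot2 and Acot1 start 21.6 kb apart on chromosome 12.

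Every value below is the log2 processed signal of a probe minus the 75th percentile of its array, so that 0 is the level of a probe at that percentile. Such levels compare arrays for 1 probe and not different probes. The 75th percentile lay between 451.2 and 878.0 intensity units and 59.9 to 70.0% of probes were well above background on an array. Slc29a1 itself was at 1.38, 0.59 and 1.53 in the knockout hearts, against 3.15, 3.23 and 3.36 in the wild type hearts. It was at -1.43, -1.30 and -1.43 in the knockout kidneys, against 1.51, 1.27 and 1.62 in the wild type kidneys. All 8 cardiomyocyte markers, with Myh6 and Tnnt2 first on the list, were well above background on the 3 wild type hearts, and all 8 kidney tubule markers, with Umod and Slc34a1 first, on the 3 wild type kidneys. In the other tissue 4 of the 8 cardiomyocyte markers were well above background on all 3 wild type kidneys, and 2 of the 8 tubule markers on all 3 wild type hearts. Xist, made from the inactive X chromosome of female cells, had signal on knockout hearts a and b and on knockout kidney a only. In the knockouts the letter b therefore does not join a heart and a kidney with the same Xist state. Under no pairing of knockout hearts with knockout kidneys do all pairs share an Xist state. The Xist values thus do not match the statement that the same 3 knockout mice gave both tissues. The knockout hearts shared 1 slide and the wild type hearts another, and the effects of slide and of genotype on the hearts cannot be told apart. The slide of the wild type hearts held no kidney. The effects of slide and of tissue therefore cannot be told apart in the wild types either, also with slide as a block. Knockout kidney a was the sole array on its slide and had 231 flagged spots left out, against 54 to 91 on the other arrays. For that kidney the effects of slide and of Xist state cannot be told apart.

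In the wild type mice Cpt1b, Pdk4, Ucp3 and Plin5 were higher in heart than in kidney, and Cpt1a, Acot1 and Ehhadh were lower. Of the 30 genes, 22 (73.3%) differed between heart and kidney at an adjusted p under 0.05 (limma, Benjamini-Hochberg over all genes), 15 higher in heart and 7 lower, and for all 22 the 3 hearts and the 3 kidneys did not overlap. The background was high: 64.5% of the 17983 genes tested differed, 34.2% higher and 30.3% lower, and 71.6% did not overlap. The median difference of the 30 genes was 0.59, against 0.07 over all genes. All 30 passed the filter on dim probes in this comparison and in those of the knockout.

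Of the uptake, binding and activation genes, 3 of 4 were higher in heart and 1 was lower. Cd36, the fatty acid translocase of the plasma membrane, was at 5.38, 5.37 and 5.47 in the hearts and 4.05, 4.33 and 3.78 in the kidneys, a 2.57-fold higher level in heart (log2 difference 1.36 ± 0.17 SE, adjusted p = 2.94e-04). Fabp3, the heart form of the fatty acid binding protein, was at least 3.63-fold higher (1.86 ± 0.23, adjusted p = 2.74e-04), since its probe was saturated on all 3 hearts. Acsl1, the main acyl-CoA synthetase of heart, was 2.32-fold higher (1.21 ± 0.18, adjusted p = 6.27e-04), and its other probes gave 1.55 and 1.45. Fabp1, the liver form, went the other way. It was at -3.01, -3.63 and -4.20 in the hearts and -2.05, -1.92 and -2.40 in the kidneys, a 2.81-fold lower level in heart (-1.49 ± 0.30, adjusted p = 0.00367). With the knockout arrays in place of the wild type arrays, a setting chosen after seeing the data, its difference was 1.01 (adjusted p = 0.231).

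The carnitine palmitoyltransferases of the outer mitochondrial membrane, Cpt1b and Cpt1a, lay on opposite sides. Cpt1b, the muscle form, was at 5.31, 5.16 and 6.10 in the hearts and 1.73, 1.75 and 1.69 in the kidneys, or 13.9-fold higher in heart (3.80 ± 0.25, adjusted p = 9.54e-06). Cpt1a, the liver form, was at 1.78, 2.08 and 1.56 in the hearts and 4.61, 4.93 and 4.45 in the kidneys, or 7.24-fold lower in heart (-2.86 ± 0.19, adjusted p = 1.14e-05). The other probe of each gene gave 3.74 for Cpt1b and -2.63 for Cpt1a. Slc25a20, the carnitine-acylcarnitine carrier of the inner membrane, was 2.69-fold higher in heart (1.43 ± 0.15, adjusted p = 1.10e-04). Cpt2, the inner membrane transferase that both forms feed, differed by 0.01 (adjusted p = 0.985). Mlycd, which breaks down the Cpt1 inhibitor malonyl-CoA, differed by 0.05 (adjusted p = 0.83).

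Among the 10 genes of mitochondrial beta-oxidation, 5 were higher in heart, 1 was lower and 4 did not pass the test. Hadha averaged 3.67 ± 0.40 in heart and 1.60 ± 0.19 in kidney (SD, n = 3 each), a 4.21-fold difference (2.07 ± 0.23, adjusted p = 1.39e-04). Its partner Hadhb, saturated on all 3 hearts, was at least 3.12-fold higher (1.64 ± 0.19, adjusted p = 1.81e-04). Acadl, the long-chain acyl-CoA dehydrogenase, was 3.1-fold higher (1.63 ± 0.18, adjusted p = 1.66e-04). Eci1, an enoyl-CoA isomerase for unsaturated fatty acids, was 2.38-fold higher (1.25 ± 0.17, adjusted p = 4.13e-04) with 1 of the 3 hearts saturated, and Etfdh, which passes the electrons to ubiquinone, was 1.98-fold higher (0.99 ± 0.20, adjusted p = 0.00321).
Hadh, the dehydrogenase for medium and short chains, was the gene of this group that was lower in heart, at 4.09, 3.87 and 4.25, against 5.45, 5.51 and 5.27 in kidney (2.54-fold, -1.34 ± 0.15, adjusted p = 1.86e-04). The trifunctional protein subunits and Hadh thus lay on opposite sides, with no array of either tissue overlapping the other. Acads, the short-chain dehydrogenase, differed by -0.36 (adjusted p = 0.135) and Decr1, the dienoyl-CoA reductase, by 0.20 (adjusted p = 0.353). Acadvl and Acadm, the very-long-chain and medium-chain dehydrogenases, were saturated on all wild type arrays, so no fold is given.

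Ehhadh, the peroxisomal bifunctional enzyme, was at 0.58, -0.22 and -0.39 in the hearts and 5.52, 5.32 and 5.16 in the kidneys. It was 40.7-fold lower in heart (-5.35 ± 0.27, adjusted p = 2.45e-06), the largest difference of the 30 genes. The cytosolic thioesterase Acot1, which frees fatty acids from CoA, was 5.01-fold lower in heart (-2.33 ± 0.16, adjusted p = 1.01e-05), at 1.99, 2.01 and 2.02, against 4.34, 4.56 and 4.10 in kidney. Its mitochondrial neighbour Acot2 was 2.21-fold higher (1.15 ± 0.18, adjusted p = 9.83e-04). As these sequences are closely related, signal shared between the Acot probes was not tested.

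Of the 6 genes of fuel switch, uncoupling and lipid storage, 4 were higher in heart and 2 lower at an adjusted p under 0.05. Pdk4, the kinase that turns pyruvate dehydrogenase off, was at 4.75, 5.23 and 4.92 in the hearts and 0.78, 1.45 and 1.21 in the kidneys, or 14.1-fold higher in heart (3.82 ± 0.22, adjusted p = 4.52e-06). Ucp3, the muscle uncoupling protein, was at -0.20, 0.28 and -0.26 in the hearts and -4.05, -4.96 and -3.50 in the kidneys (17.3-fold, 4.11 ± 0.37, adjusted p = 4.62e-05). Plin5, the lipid droplet coat protein of oxidative tissues, was 11.4-fold higher (3.51 ± 0.20, adjusted p = 4.30e-06) and Ucp2 3.22-fold higher (1.69 ± 0.14, adjusted p = 2.60e-05). Those 4 genes were higher in every heart than in any kidney. Angptl4, a secreted inhibitor of lipoprotein lipase, was 2.38-fold lower in heart (-1.25 ± 0.45, adjusted p = 0.0431). Over 16 alternative settings its difference lay between -1.54 and -0.85 (adjusted p between 0.0122 and 0.128), and its call was lost under 7. Those 7 included leaving out wild type heart b (0.0648) or c (0.128) and wild type kidney a (0.058) or b (0.121). Plin2, the widespread droplet coat protein, was 1.79-fold lower in heart (-0.84 ± 0.23, adjusted p = 0.0139). Its call was lost under 4 of the 16 settings. Those were leaving out wild type heart b or c, the fit of all 12 arrays, and the knockout arrays, with which its difference was 0.06 (adjusted p = 0.92).

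The regulators did not pass the test. Ppara was at 1.31, 0.90 and 1.42 in the hearts and 2.34, 1.18 and 2.29 in the kidneys, a difference of -0.73 ± 0.33 (adjusted p = 0.0903) in which kidney b lay among the hearts. Ppargc1a differed by -0.09 ± 0.22 (adjusted p = 0.752), and its other probe gave -0.37. It passed with the knockout arrays in place of the wild type arrays, a setting chosen after seeing the data. Its difference there was -1.87 (limma, adjusted p = 0.00525), read from that other probe.

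**Figure D1:**
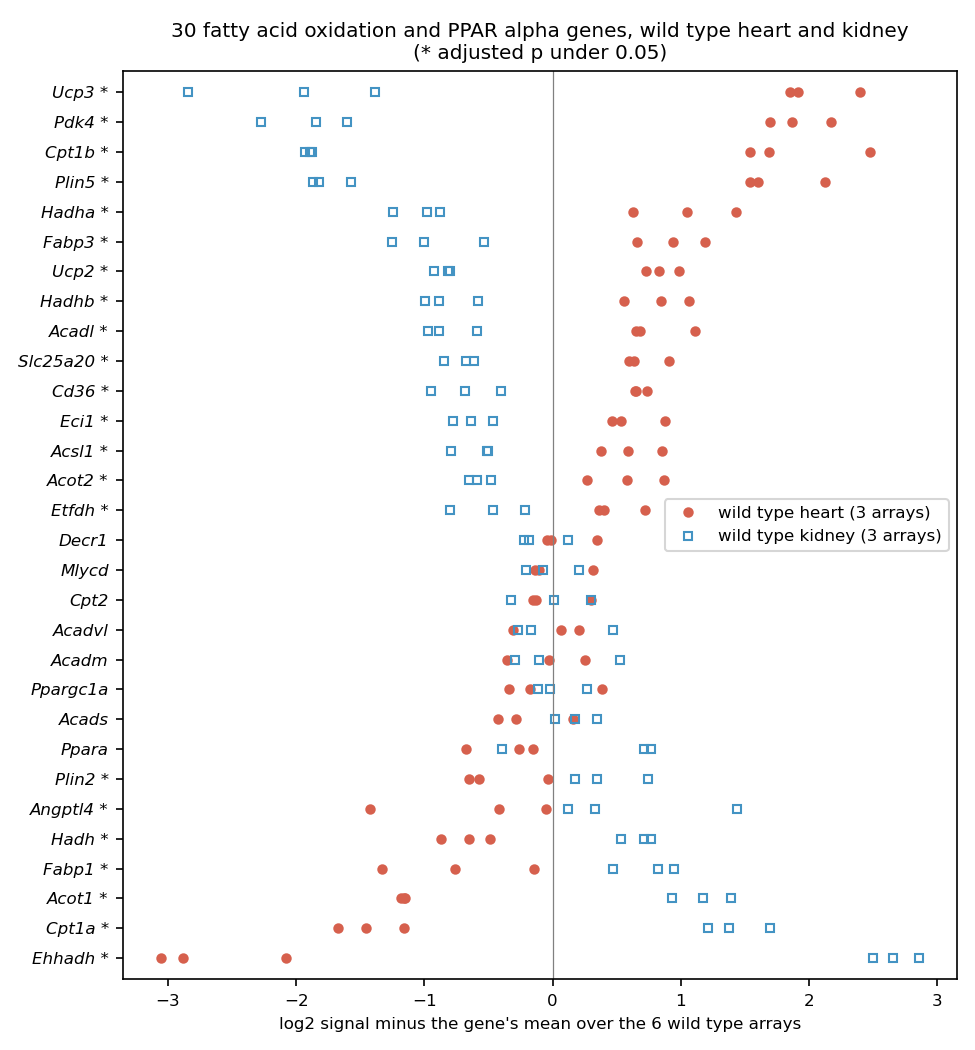
Level of each of the 30 genes on the 3 wild type hearts (filled circles) and the 3 wild type kidneys (open squares), as log2 signal minus the gene's mean over those 6 arrays, with a star at an adjusted p under 0.05. Cpt1b has its hearts on the right and Cpt1a on the left, and Ehhadh at the foot has the widest gap (-5.35).

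A wider list of 87 pathway genes, of which 86 were on the array, was set beside the 30. Of the 84 tested between the wild type tissues, 58 (69%) differed, 21 higher in heart and 37 lower, with a median of -0.47. Over all genes 64.5% differed, 34.2% higher and 30.3% lower, and the counts by role below stand beside these shares. Peroxisomal oxidation genes were 2 higher and 13 lower of 16 (median -1.55), on the side of Ehhadh. Microsomal omega-oxidation genes were 0 higher and 5 lower of 6, with Cyp4a12a and Cyp4a14 well above background on 1 of the 3 hearts. Among the named genes Cyp4a31, a fatty acid omega-hydroxylase, differed by -10.37 ± 0.24, and Acot12, a cytosolic thioesterase, was at least 2060-fold lower in heart. Hnf4a, a nuclear receptor of tubule and liver, was at least 1390-fold lower, and Acot3, a peroxisomal thioesterase, at least 44.1-fold lower. Cyp4a12a averaged -6.44 on the hearts, 1 of them above background, and 5.79 on the kidneys, so the size of its difference is not exact. Slc27a2, a very-long-chain acyl-CoA synthetase saturated on all 3 kidneys, was at least 1080-fold lower in heart (-10.08 ± 1.53). The hearts were spread at 0.19, -6.80 and -3.06, so that bound is of the group means and not of each heart.

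Mitochondrial oxidation and ketone body genes of the wider list were 2 higher and 4 lower of 15 (median -0.20), and PPAR targets and lipid droplet genes 9 higher and 4 lower of 19 (median 0.72). Uptake, activation and transport genes were 5 higher and 6 lower of 14, and nuclear receptors and coactivators 3 higher and 5 lower of 14. Among the genes with the largest higher differences in heart were Acsl6, an acyl-CoA synthetase (5.69 ± 0.20, 51.7-fold), Rxrg, a retinoid X receptor (5.44 ± 0.22, 43.5-fold), and Pdk1, another pyruvate dehydrogenase kinase (3.72 ± 0.16, 13.2-fold). Cpt1c, the brain form of the transferase, was also higher (2.37 ± 0.19, 5.16-fold), as was Acacb, which makes malonyl-CoA at the mitochondrion (1.94 ± 0.21, 3.85-fold).

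**Figure D2:**
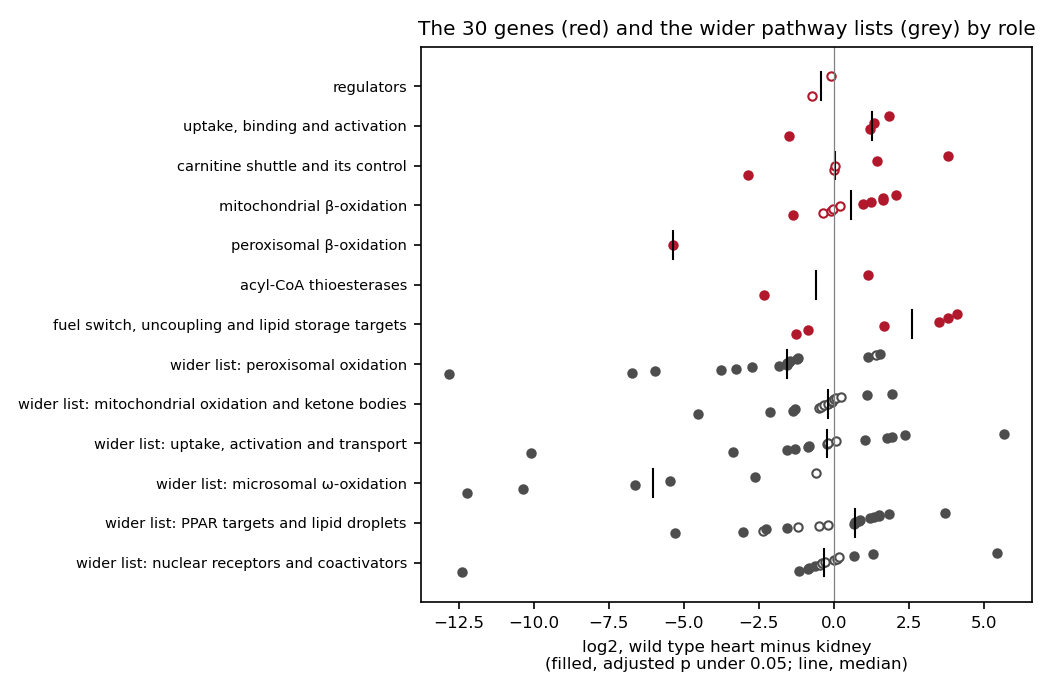
Difference between wild type heart and wild type kidney on the log2 scale by role, with a red point for each of the 30 genes, a grey point for each gene of the wider list, filled at an adjusted p under 0.05, and a line at the median of each group. Peroxisomal and omega-oxidation genes of the wider list lie mostly below 0 (2 of 16 and 0 of 6 called higher), and 3 of the 4 uptake, binding and activation genes above it. Over all genes 34.2% were called higher and 30.3% lower.

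Loss of mENT1 in the heart was accompanied by a change past the test in 1 of the 30 genes. Fabp1 was higher in the knockout hearts. The other 29 did not pass the test, and the 30 had a median difference of -0.28, against -0.07 over all genes. In the mean of the knockout hearts 26 of the 30 were lower and 4 higher, where 42.2% of all genes were higher. Those 26 include Fabp3, Acadvl, Acadm and Hadhb, whose probes were saturated on hearts of both groups. Of 17482 genes tested, 0.664% passed, 0.578% higher and 0.0858% lower. At an unadjusted p under 0.05 (limma), 3 of the 30 genes stood, beside 2742 of all 17482. The median of the 30 genes relative to the wild type mean was -0.29, -0.48 and -0.09 for the knockout hearts, in the order a, b, c, against -0.10, -0.13 and 0.24 on the wild type hearts. Knockout heart c, the knockout heart without Xist signal, lay above 2 wild type hearts, so the groups overlapped. Set alone against the wild type hearts, its variance taken to be that of theirs, it was lower for 20 of the 30 genes with a median of -0.09. In bulk tissue, fewer cells of a type and less RNA per cell cannot be told apart.

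Fabp1 was at 0.05, 0.68 and 0.57 in the knockout hearts, against -3.01, -3.63 and -4.20 in the wild type hearts. Every knockout heart was above every wild type heart, and the gap between the groups was wider than the range within either. The difference was 4.05 ± 0.33, or 16.5-fold (limma, adjusted p = 0.00727). Its probe lies on the plus strand at chr6:71222913-71222972 of build mm7, and its place in the transcript was not analysed here. With the letter as a block, which paired the hearts by correlation, the difference was the same and the adjusted p was 0.0506, and the count over all genes was 55 in place of 116. Without wild type heart b the adjusted p was 0.0561, and with only the arrays without Xist signal it was 0.0775. Over all 15 alternative settings the difference lay between 2.97 and 4.35.

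Fabp1 is abundant in hepatocytes, and 12 hepatocyte markers were tested in the heart, of which 6 were well above background on every heart. Of those 6, chosen by background after the values were seen, Alb, Apoa2, Fgb and Fgg were higher in the knockout hearts, while Ahsg (-0.10) and Tat (0.23) did not pass the test. Relative to the wild type mean the hepatocyte median was 3.04, 3.17 and 3.85 on the knockout hearts, against 0.75, -0.17 and -0.55 on the wild type hearts. The log2 of the summed signal of that list was 3.45, 4.07 and 4.12 in the knockout hearts, against 3.65, 3.39 and 3.53 in the wild type hearts. These sums overlapped, but a sum over different probes follows the brightest of them and does not speak for the list. Of the 12 markers, 10 passed the test as higher, where 0.578% of all genes did, and 4 of those 10 had signal well above background on every heart. Of the 12 markers, 12 were well above background on each knockout heart, against 10, 7 and 6 on the wild type hearts, so the median includes dim values there. Only 6 of the 12 were well above background on all 3 wild type hearts. The rest passed the filter through the knockout hearts alone, which favours a higher median on those hearts. Alb, serum albumin, was at 0.31, 0.46 and 1.34 in the knockout hearts, against -2.13, -2.85 and -3.62 in the wild type hearts (11.8-fold, 3.57 ± 0.44, adjusted p = 0.0347). Apoa1, the apolipoprotein of high density lipoprotein, was at least 5.83-fold higher (adjusted p = 0.0211) and was not well above background in the wild type hearts. The part of these markers in the Fabp1 result was not tested.

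Markers of other tissues differed between single hearts. Thymus and lymphocyte markers, relative to the wild type mean, had a median of 4.34, 5.14 and 0.49 on the knockout hearts, against 0.34, -0.28 and -0.23 on the wild type hearts. Lung and airway markers had 9.42, -0.03 and -0.41 on the knockout hearts, against 2.27, -0.92 and -1.57 on the wild type hearts. White adipocyte markers had 2.73, 0.82 and 1.88 on the knockout hearts, against 2.12, -1.61 and -0.29 on the wild type hearts. Knockout hearts a and b thus stood high for lymphocyte markers and knockout heart a for lung markers. Skeletal muscle markers had -1.14, -1.41 and -2.22 on the knockout hearts, against 2.80, -1.33 and -1.48 on the wild type hearts, where wild type heart a stood apart. All 7 endothelial markers were lower in the mean of the knockout hearts, with a median difference of -0.40, 3 of them without overlap. Over all genes 42.2% were higher in that mean, and 13% were lower without overlap. The endothelial median was -0.53, -0.40 and -0.09 on the knockout hearts, against 0, 0.03 and 0 on the wild type hearts. None of these lists had a gene past the test in the heart. An unadjusted p under 0.05 (limma) stood for 4 of 6 thymus and lymphocyte, 0 of 4 lung and airway and 1 of 7 white adipocyte markers. It stood for 0 of 5 skeletal muscle and 3 of 7 endothelial markers, beside 2742 of all 17482 genes. Of the 4 lung and airway markers, 3 were well above background on every wild type heart. The part of these markers in the values of the 30 genes was not tested. The 8 cardiomyocyte markers were all lower in the mean of the knockout hearts, with a median of -0.19 and none past the test.

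**Figure D3:**
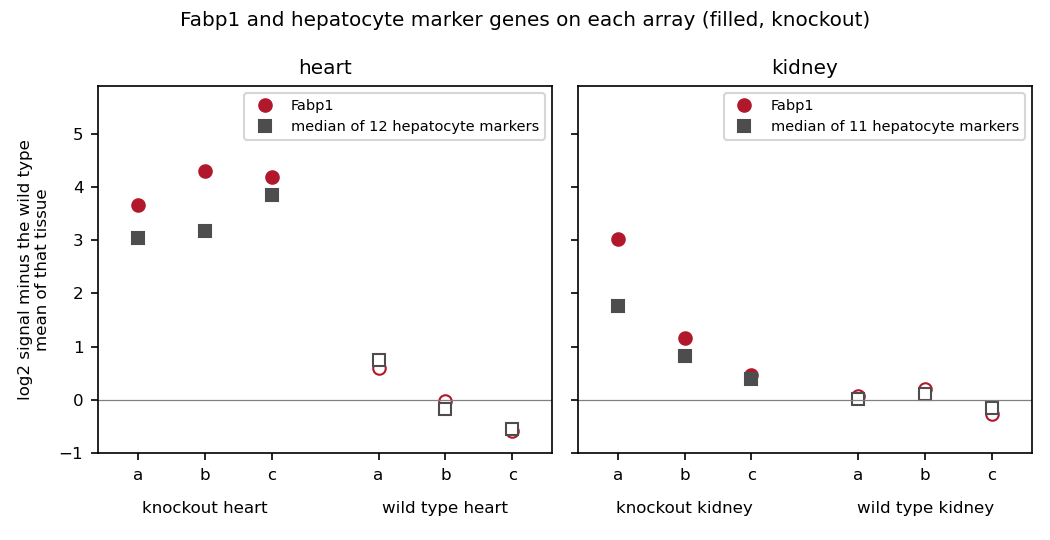
Log2 signal of Fabp1 (circles) and the median of the hepatocyte markers (squares) on each array, both minus the wild type mean of the tissue, with knockout filled and wild type open. On the knockout hearts the hepatocyte median is at 3.04, 3.17 and 3.85 and Fabp1 lies above it on each, and in the kidney array a is the highest for both. Of the 12 markers in the heart, 6 were well above background on every wild type heart, and the rest passed the filter through the knockout hearts alone.

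Among the other uptake genes, Cd36 was at 4.97, 4.83 and 5.28 in the knockout hearts, against 5.38, 5.37 and 5.47 in the wild type hearts. Each knockout heart lay below each wild type heart, but the difference of -0.38 ± 0.16 did not pass the test (adjusted p = 0.318). Its other probe was at 4.62, 4.55 and 5.04 in the knockout hearts, against 4.92, 5.04 and 5.11 in the wild type hearts (-0.28), and there the groups overlapped. Acsl1 differed by -0.28, and the Fabp3 probe was saturated in both groups. Of the 30 genes, 2 were higher without overlap (Fabp1 and Ucp2) and 2 lower (Cd36 and Ucp3), beside 9.14% of all genes that were higher and 13% that were lower without overlap, 22.1% in both directions together.

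The carnitine shuttle genes differed by -0.48 to -0.17 and those of mitochondrial beta-oxidation by -0.46 to -0.10, and none passed. Cpt1b was at 4.88, 4.90 and 5.35 in the knockout hearts, against 5.31, 5.16 and 6.10 in the wild type hearts (-0.48 ± 0.29, adjusted p = 0.414). Its knockout value on array c lay within the wild type range, and wild type heart c was the highest array. Hadha differed by -0.37, Hadhb by -0.28 and Etfdh by -0.29, each with overlapping groups. The other probe of Etfdh was at 2.23, 1.61 and 2.40 in the knockout hearts, against 2.50, 2.62 and 2.68 in the wild type hearts (-0.52), without overlap. Of the 10 beta-oxidation genes, Acadvl was saturated on 3 knockout and 3 wild type hearts and Acadm and Hadhb on 2 knockout and 3 wild type hearts, so their direction cannot be read. The other 7 were lower in the mean of the knockout hearts. The size of this shift moved with the scaling: the 30 genes had a median of -0.44, against -0.23 over all genes, with scaling by the array median, and of -0.14, against -0.08 over all genes, with quantile normalization.

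Ucp3 was at -0.29, -1.01 and -1.20 in the knockout hearts, against -0.20, 0.28 and -0.26 in the wild type hearts. The groups did not overlap, although knockout heart a lay close to wild type heart c, and the 1.71-fold lower level did not pass the test (-0.77 ± 0.28, adjusted p = 0.295). Plin2 was at 5.56, 3.83 and 4.34 in the knockout hearts, against 4.33, 3.79 and 3.71 in the wild type hearts (0.64 ± 0.45, adjusted p = 0.471), where knockout heart a alone stood high. Pdk4 was at 4.19, 5.36 and 4.21 in the knockout hearts, against 4.75, 5.23 and 4.92 in the wild type hearts, with the groups overlapping. Acot1 was at 2.31, 3.02 and 1.88 in the knockout hearts, against 1.99, 2.01 and 2.02 in the wild type hearts (0.40 ± 0.29, adjusted p = 0.475), so that the knockout hearts lay on both sides. Ppara differed by -0.17 and Ppargc1a by -0.45, with overlap in both.

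**Figure D4:**
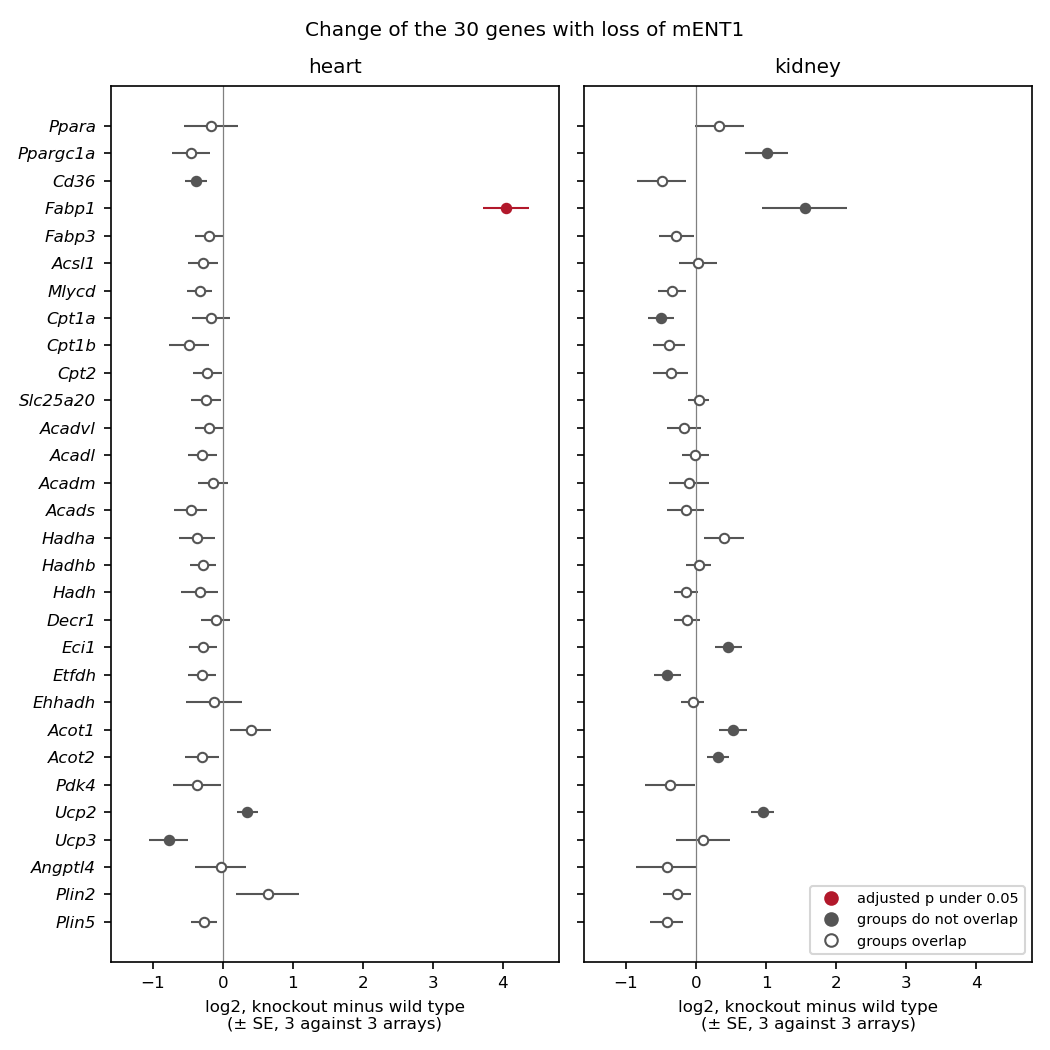
Difference between knockout and wild type for each of the 30 genes in the heart (left) and the kidney (right), on the log2 scale, with the standard error as bars, red at an adjusted p under 0.05, dark where the groups do not overlap and open where they do. Fabp1 in the heart (4.05) is the gene past the test, and 26 of the 30 heart values lie below 0. Those 26 include Fabp3, Acadvl, Acadm and Hadhb, whose probes were saturated on hearts of both groups. Over all genes 42.2% were higher in the heart and 41.5% in the kidney.

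In the kidney none of the 30 genes passed the test, and the lowest adjusted p was 0.0921, for Ucp2. The test was limma's, and 6 of the 30 had an unadjusted p under 0.05, beside 2266 of all 17227 genes. Of 17227 genes tested, 0.163% passed, 0.029% higher and 0.134% lower. Of the 30 genes, 12 were higher and 18 lower in the mean of the knockout kidneys, where 41.5% of all genes were higher. The median of the 30 was -0.11, against -0.07 over all genes. The groups did not overlap for 6 that were higher (Ppargc1a, Fabp1, Eci1, Acot1, Acot2 and Ucp2) and 2 that were lower (Cpt1a and Etfdh), where 8.79% of all genes were higher and 12.7% lower without overlap, 21.5% together. The median of the 30 genes had the opposite sign, 0.02, with quantile normalization.

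Ucp2, an uncoupling protein homologue of the inner mitochondrial membrane, was at 0.70, 1.08 and 1 in the knockout kidneys, against 0.02, 0.01 and -0.10 in the wild type kidneys. Every knockout kidney was above every wild type kidney, at a difference of 0.95 ± 0.16 or 1.93-fold (adjusted p = 0.0921). Without knockout kidney a, which also leaves only arrays without Xist signal, it was 1.06 (adjusted p = 0.0493), and within the slide that held both genotypes 1.02 (adjusted p = 0.0536). In the heart the same probe was at 1.85, 2.13 and 2.06 in the knockouts, against 1.55, 1.81 and 1.65 in the wild types, without overlap (0.35 ± 0.15, adjusted p = 0.32). This probe lies at chr7:96545541-96545600 of build mm7.

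The other probes of Ucp2 were read beside it. The probe at chr7:96543013-96543072 was at -2.26, -1.89 and -1.88 in the knockout kidneys, against -3.00, -3.22 and -2.95 in the wild type kidneys. It was at -0.87, -0.47 and -0.64 in the knockout hearts, against -1.16, -0.90 and -1.26 in the wild type hearts. The knockout arrays were the higher ones in both tissues, in the heart by a small margin. The dimmest probe, at chr7:96547222-96547281, was well above background on no wild type kidney and differed by 0.55 in the kidney and 0.65 in the heart, with overlapping groups.

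Ppargc1a was at 2.34, 2.04 and 1.48 in the knockout kidneys, against 0.52, 0.87 and 1.42 in the wild type kidneys, by the probe with the higher mean there (1.01 ± 0.31, adjusted p = 0.239). The groups were closest at knockout kidney c and wild type kidney c. The other probe, at chr5:50828808-50828867 of build mm7, was at 1.60, 0.86 and 0.68 in the knockout kidneys, against 0.87, 1.25 and 0.96 in the wild type kidneys, a difference of 0.02 with overlapping groups. The 2 probes therefore disagree. The probes of Hadha also disagreed in the kidney, at 0.40 and -0.73.

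Fabp1 was at 0.90, -0.97 and -1.65 in the knockout kidneys, against -2.05, -1.92 and -2.40 in the wild type kidneys. Each knockout kidney was higher, by far the most kidney a, which had Xist signal and was alone on its slide. The difference of 1.55 ± 0.61 did not pass the test (limma, adjusted p = 0.348). Without knockout kidney a it was 0.81, and over all 16 alternative settings it lay between 0.67 and 2.09. The hepatocyte markers had a median of 1.76, 0.83 and 0.39 on the knockout kidneys, against 0.02, 0.11 and -0.15 on the wild type kidneys, in the same order of arrays as Fabp1. Of the 11 tested, 9 were well above background on every wild type kidney. None of the 11 passed the test, and 5 had an unadjusted p under 0.05 (limma), beside 2266 of all 17227 genes.

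Acot1 was at 4.88, 5.10 and 4.61 in the knockout kidneys, against 4.34, 4.56 and 4.10 in the wild type kidneys (0.53 ± 0.20, adjusted p = 0.33), and Acot2 differed by 0.31 ± 0.16 (adjusted p = 0.462). Cpt1a was at 4.20, 4.21 and 4.07 in the knockout kidneys, against 4.61, 4.93 and 4.45 in the wild type kidneys (-0.50 ± 0.18, adjusted p = 0.295), but its other probe differed by -0.06 with overlapping groups. Eci1 was at 5.36, 5.82 and 5.75 in the knockout kidneys, against 5.03, 5.34 and 5.17 in the wild type kidneys (0.46 ± 0.19, adjusted p = 0.364). The groups of Acot1 and of Eci1 came close to each other, and Cpt1a was lower in every knockout kidney. Etfdh differed by -0.41 ± 0.19 (adjusted p = 0.43), and its other probe by -0.08.

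The rest of the 30 genes had overlapping groups in the kidney. Ehhadh, the gene with the largest tissue difference, was at 5.23, 5.41 and 5.19 in the knockout kidneys, against 5.52, 5.32 and 5.16 in the wild type kidneys (-0.05 ± 0.16, adjusted p = 0.907). Acadm lacked a value on knockout kidney a, whose spot was left out as an outlier, so its fit used 2 knockout kidneys. Clock genes, which set daily rhythms in metabolic tissues, had a median of 0.05, -0.99 and -1.03 on the knockout kidneys relative to the wild type mean, against -0.02, 0.03 and -0.05 on the wild type kidneys. It was -0.23, -0.92 and -0.27 on the knockout hearts, against -0.01, 0 and 0.05 on the wild type hearts. Dbp, a clock output factor, was at 6.09, 2.07 and 2.15 in the knockout kidneys, against 6.34, 6.80 and 6.08 in the wild type kidneys. Knockout kidneys b and c stood apart from kidney a, and the part of this in the values above was not tested.

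**Figure D5:**
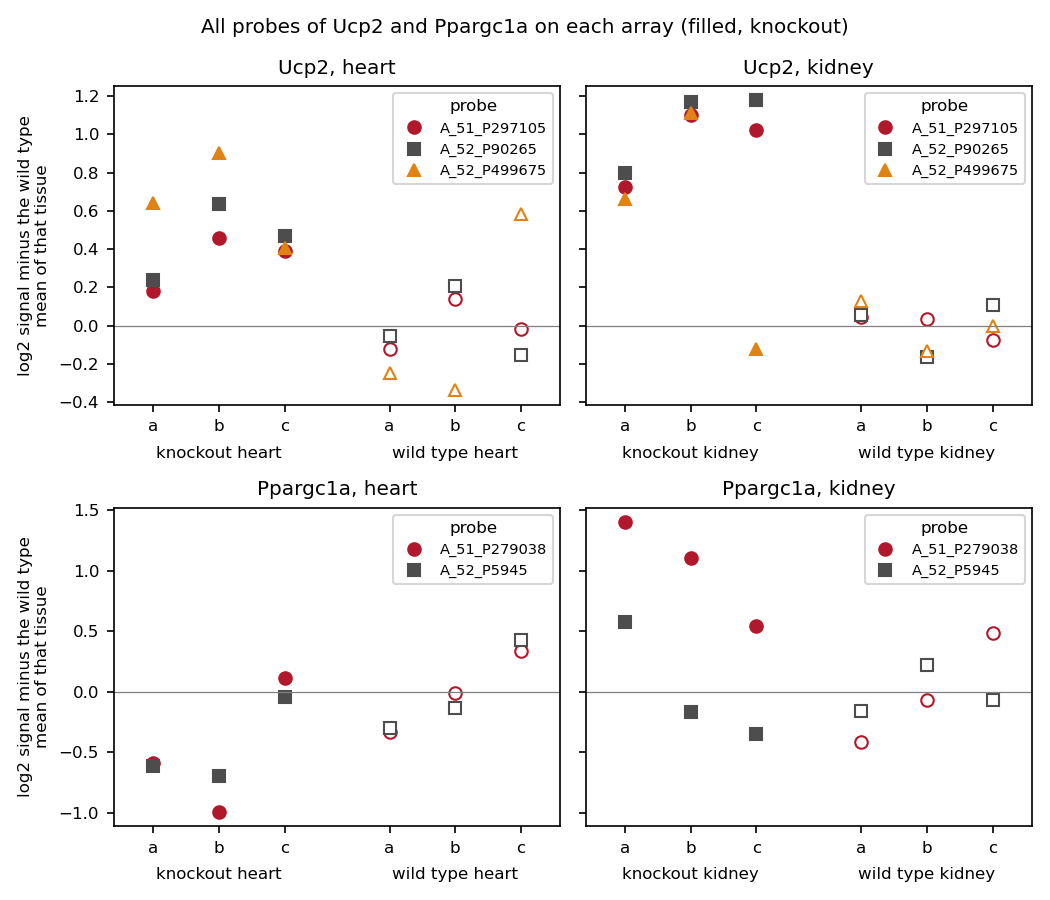
Log2 signal of each probe of Ucp2 (upper panels) and Ppargc1a (lower panels) on each array, minus the wild type mean of the tissue, with knockout filled and wild type open. In the kidney 2 probes of Ucp2 hold all knockout arrays above all wild type arrays (differences of 0.95 and 1.05), while the probes of Ppargc1a part (1.01 and 0.02).

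The effects in the 2 tissues were set against each other in a fit of all 12 arrays. That fit took the arrays as independent and did not model the mouse, the stated source of both tissues. For the knockouts that source does not match the Xist values. None of the 30 genes passed the test of the difference between the heart effect and the kidney effect, where 0.632% of 18501 genes did, 0.557% with a higher and 0.0757% with a lower effect in heart. At an unadjusted p under 0.05 (limma), 4 of the 30 stood, beside 2700 of all 18501. The difference between the effects was 2.50 ± 0.78 for Fabp1 (adjusted p = 0.196), -1.51 ± 0.48 for Ppargc1a (adjusted p = 0.206), -0.60 ± 0.21 for Ucp2 (adjusted p = 0.233) and -0.74 for Eci1 (adjusted p = 0.266). Without knockout kidney a the Fabp1 difference was 3.23 (adjusted p = 0.0246), and without knockout heart c that of Ppargc1a was -1.81 (adjusted p = 0.0421). The other probe of Ppargc1a differed by -0.45 in the heart and by 0.02 in the kidney.

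The effect averaged over both tissues was added after the values were seen. Its fit took heart and kidney arrays as independent, although 3 mice per genotype were stated as the source of both tissues. That source does not match the Xist values of the knockouts. Where a mouse gave both tissues the p-values may be too small, and no alternative setting modelled the mouse. By the averaged effect 2 of the 30 genes passed, both higher in the knockouts, where 1.04% of all genes did, 0.616% higher and 0.422% lower. Fabp1 was 6.95-fold higher (2.80 ± 0.39, adjusted p = 0.0075), and this held under all 16 alternative settings, with adjusted p between 0.00189 and 0.0287. Ucp2 was 1.57-fold higher (0.65 ± 0.10, adjusted p = 0.0217), in a range of 0.56 to 0.70. Its adjusted p was 0.0917 with scaling by the array median and 0.38 with normexp background correction. Leaving out wild type heart a or c, knockout kidney b or c, or wild type kidney a or c gave 0.0501 to 0.0605. The median of the 30 genes was -0.14, against -0.05 over all genes.

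None of the wider pathway genes passed the test in either tissue (limma). In the heart 81 were tested, the median difference was -0.14, the lowest adjusted p was 0.186 and 10 had an unadjusted p under 0.05. In the kidney 83 were tested, the median was -0.15, the lowest adjusted p was 0.248 and 7 had an unadjusted p under 0.05. All 15 mitochondrial and ketone body genes of that list were lower in the mean of the knockout hearts (median -0.28), as were 10 of 13 peroxisomal genes (median -0.11), none past the test. In the same hearts 4 of 5 omega-oxidation genes (median 0.06) and 11 of 19 PPAR targets and lipid droplet genes (median 0.01) were higher in the mean, where 42.2% of all genes were. In the averaged effect none of 85 passed, 10 had an unadjusted p under 0.05 and the lowest adjusted p was 0.141. Over all genes an unadjusted p under 0.05 (limma) stood for 2742 of 17482 in the heart and 2266 of 17227 in the kidney. For the averaged effect it stood for 2878 of 18501.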

How the data were processed

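Scanner output for every array was deposited, and so was a table of values that the authors had processed. Per the file headers, the scanner output is intensity per spot, background-subtracted and detrended but not scaled between arrays, from version 9.5.3.1 of Agilent's Feature Extraction software, where the submitters' processing notes name 9.1. The deposited table holds log2 values scaled by the authors and centred by probe within each tissue, as tested on its values. Each of its 12 columns followed the array of the other genotype with the same letter and tissue (r of 0.9998 or above), and correlated with the array of its own name at -0.271 to -0.056. Directions rest on the labels of the scanner files, in which Slc29a1 is lower in the knockouts (-2.08 ± 0.26 in heart, adjusted p = 0.0362, and -2.85 ± 0.16 in kidney, adjusted p = 0.00547, limma).

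The processed signals were taken to log2, less the 75th percentile of each array. Spots marked non-uniform or as population outliers (54 to 231 an array) were left out and spots of a probe averaged. A gene was read from the probe with the highest mean among those that stood well above background on every array of either group compared, or of both. Probe names were updated by accession (22951 probes), symbol (6659) or synonym (3109), and 8455 kept the name in the files. Probe coordinates are mm7, per the file headers.

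Groups were compared with limma 3.58.1 in R 4.3.3, on the 6 arrays concerned, with no block, and p-values were adjusted over all genes tested by the Benjamini-Hochberg method. A gene passed at an adjusted p under 0.05. Where a probe was saturated or not well above background on every array of a group, the fold is a bound from group means, written as at least. The fit was tested on simulated data. The number of arrays limits the precision, and p-values cover the spread between these arrays.

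The 30 genes and the other lists were chosen with earlier results of these data known. Every 1 of the 30 is reported, of the wider list the genes past the test with the largest differences, up to 6 in each direction (1 such gene is not reported here), and of marker and clock lists counts and medians with leading genes.

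Letters were checked as pairs: deviations from group means correlated at 0.39, 0.19 and 0.26 for hearts a, b and c, all above 0.1, so that the letters pair the hearts by correlation only, but at 0.10, -0.01 and -0.15 for the kidneys and 0.04, -0.02 and -0.05 between wild type tissues. Alternatives were other scalings, normexp background correction, other filters and probe rules, the letter or slide as a block, and leaving out arrays.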

Additional observations from a re-analysis of the deposited data

How the results depend on the processing

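Between the wild type tissues 20 to 23 of the 30 genes passed under every alternative with wild type arrays, and 19 with the knockout arrays in their place, when 17 of the 22 were kept and Fabp1 (1.01) and Plin2 (0.06) turned sign. Ppara passed there under 5 of 16 alternatives: the replicate block (adjusted p = 0.0242), median scaling, normexp, without wild type kidney b (adjusted p = 0.00335) and with the knockout arrays. Ppargc1a passed there under 1 of 16, with the knockout arrays. In the heart 1 of the 30 passed except with the letter as a replicate block (0, and 5 at an unadjusted p under 0.05 by limma), without wild type heart b (0, and 1 unadjusted) and on arrays without Xist signal (0, and 3 unadjusted). Over all genes the heart count of 116 was 60 with quantile normalization, 17 with normexp, 55 with no dim filter, 27 with signal on all arrays, 55 with the replicate block, 46 on arrays without Xist signal, and 23 to 1979 when arrays were left out (members 0 to 1), 1979 without knockout heart c and 23 without wild type heart b. The kidney count of 28 was 104 with median scaling, 0 with normexp (600 unadjusted), 4 with no dim filter, 50 with probe means, 2 with the replicate block, 11 with the deposited table, 121 on arrays without Xist signal (members 1), 289 within a slide, and 1 to 121 when arrays were left out (members 0 to 1). The count for the difference between tissues, 117, was 0 with normexp (1075 unadjusted), 46 with signal on all arrays, 55 with the replicate block, 19 with slide as a random block, and 39 to 1267 when arrays were left out (members 0 to 1). For the averaged effect, 192 was 125 with the replicate block, 12 with normexp, and 73 to 1254 when arrays were left out. Its members past the test numbered 1 with median scaling, 1 with normexp and 1 to 2 when arrays were left out. The replicate block changed no other call of the knockout among the 30 genes. Differences short of the test kept their sign in part: over the alternatives, at least 27 of the 30 genes kept it between the wild type tissues, 22 in the heart, 24 in the kidney, 21 in the difference between tissues and 25 in the averaged effect. The causes were not tested. Dim probes were limited by background and bright ones by saturation, as given beside Fabp3, Hadhb, Acadm, Acadvl and Eci1.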

Other observations

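Cyp4a14, a fatty acid omega-hydroxylase induced by PPAR alpha, was chosen after its values were seen. It was at 6.08, 0.77 and 2.21 in the knockout kidneys, against -1.11, -0.09 and 0.02 in the wild type kidneys, without overlap (3.41 ± 1.26, adjusted p = 0.322, limma). Knockout kidney a, with Xist signal and alone on its slide, stood far above the others. In the heart Cyp4a14 was at -4.80, -2.30 and -5.87 in the knockouts, against -6.32, -7.76 and -6.95 in the wild types, without overlap (2.68 ± 0.91, adjusted p = 0.276), and above background on 1 of the 3 wild type hearts. The averaged effect was 3.05 ± 0.87 (adjusted p = 0.141).

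Cyp4a12a, another omega-hydroxylase and also chosen after its values were seen, was at -1.23, 4.68 and 5.52 in the knockout kidneys, against 5.81, 6.21 and 5.36 in the wild type kidneys. Knockout kidney a, the kidney with Xist signal and alone on its slide, was the array that stood low.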
